A study of Homo sapiens with 9 samples.

Results

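The genes described here write, copy, remove or read along with DNA methylation, or form the core of Polycomb repressive complex 2 (PRC2). They are the maintenance genes DNMT1 and UHRF1, the de novo methyltransferases DNMT3A and DNMT3B, the dioxygenases TET1, TET2 and TET3, and the PRC2 core subunits EZH2, SUZ12 and EED. The 10 members were chosen by symbol, as possible agents of gene silencing in the metastatic line. The rule uses no signal, but the choice was made with earlier results of these arrays known. They are 10 of the 19775 genes that have a probe set (a set of short probes read as 1 signal) of their own on the array. The array holds 21 member probe sets, of which 20 name 1 gene and 1 is shared between SUZ12 and its pseudogene SUZ12P1.

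Expression was measured in 3 human breast cell lines, from total RNA on 9 Affymetrix arrays, 3 per line. All are MCF-10A derivatives, from a series in which a non-tumorigenic breast epithelial line was transformed with activated HRAS and passaged to more malignant derivatives. MII is MCF-10AT1Kcl2, labelled carcinoma in situ, MIII is MCF-10A1h, labelled carcinoma, and MIV is MCF-10A1a, labelled carcinoma and metastatic. All lines were untreated and shared 1 medium, DMEM/F12 with horse serum, antibiotics, insulin, cholera toxin, epidermal growth factor and a corticosteroid. Each stage is represented by 1 line, so stage and line cannot be told apart. By the labels the 3 arrays per line are biological replicates, but separate cultures are not named, and the spread behind the p-values may in part be technical.

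DNA methylation at CpG sites is copied to the new strand after replication by DNMT1, which UHRF1 brings to hemimethylated DNA. DNMT3A and DNMT3B place methyl groups on unmethylated sites, and the TET enzymes oxidise methylcytosine on the way to its removal. PRC2 methylates lysine 27 of histone H3 through its catalytic subunit EZH2, which needs SUZ12 and EED. In breast carcinoma both systems are known for silencing genes, and several of the members are transcribed more in dividing cells. The arrays measured the RNA of these genes and neither DNA methylation nor histone marks.

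The promoter sequences of the 5 members whose signal differed between MIV and MII are printed to show their CpG content. They also show where E2F-like and CCAAT words occur in them and where they are absent. Each line holds the 250 bases before the most upstream listed start of the gene, from RefSeq on GRCh38.p14, read 5′ to 3′ on the strand of the gene. Capitals mark the E2F-like words TTTCCCGC, TTTCGCGC, TTTGCCGC and TTTGGCGC and the CCAAT word, each searched on both strands, so that a word can appear as its reverse complement. No E2F-like word shared a base with a CCAAT word in these windows.
UHRF1, chr19:4909251-4909500, plus strand: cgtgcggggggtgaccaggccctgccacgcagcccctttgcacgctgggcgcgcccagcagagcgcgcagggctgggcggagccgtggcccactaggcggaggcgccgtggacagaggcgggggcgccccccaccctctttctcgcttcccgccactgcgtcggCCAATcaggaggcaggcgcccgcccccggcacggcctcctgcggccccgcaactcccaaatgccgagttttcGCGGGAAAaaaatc
DNMT3A, chr2:25342591-25342840, minus strand: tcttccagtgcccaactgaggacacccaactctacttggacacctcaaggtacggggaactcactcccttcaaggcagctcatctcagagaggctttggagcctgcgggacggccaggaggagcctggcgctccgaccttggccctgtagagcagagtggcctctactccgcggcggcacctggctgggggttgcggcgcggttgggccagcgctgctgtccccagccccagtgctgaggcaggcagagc
DNMT3B, chr20:32779602-32779851, plus strand: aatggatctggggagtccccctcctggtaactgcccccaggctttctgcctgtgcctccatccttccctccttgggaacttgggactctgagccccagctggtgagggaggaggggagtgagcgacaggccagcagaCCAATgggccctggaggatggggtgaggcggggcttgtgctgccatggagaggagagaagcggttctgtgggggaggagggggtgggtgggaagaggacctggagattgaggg
EZH2, chr7:148884292-148884541, minus strand: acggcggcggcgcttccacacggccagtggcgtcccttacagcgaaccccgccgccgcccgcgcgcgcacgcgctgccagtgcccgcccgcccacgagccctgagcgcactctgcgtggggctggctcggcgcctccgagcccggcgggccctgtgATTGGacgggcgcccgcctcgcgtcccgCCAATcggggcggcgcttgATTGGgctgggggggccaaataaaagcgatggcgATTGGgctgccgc
SUZ12, chr17:31936757-31937006, plus strand: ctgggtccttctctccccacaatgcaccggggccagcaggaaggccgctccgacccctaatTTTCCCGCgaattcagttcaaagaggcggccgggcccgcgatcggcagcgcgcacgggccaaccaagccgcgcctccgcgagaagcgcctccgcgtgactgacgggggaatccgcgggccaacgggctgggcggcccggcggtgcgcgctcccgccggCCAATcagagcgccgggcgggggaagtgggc

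The window of UHRF1 holds 28 CpG, with an E2F-like word 14 bases and a CCAAT word 86 bases before the start. The SUZ12 window holds 34 CpG, with an E2F-like word 189 bases and a CCAAT word 31 bases before the start. The EZH2 window holds 38 CpG and 4 CCAAT words, and the DNMT3A window 12 CpG and neither word. The DNMT3B window holds 3 CpG and 1 CCAAT word. The printed UHRF1 and DNMT3B windows lie inside the annotated genes, which begin at 4903080 on chromosome 19 and 32762385 on chromosome 20, so their words stand at internal starts. Among all 35116 listed windows of this length, the quartiles of the CpG count were 3, 11 and 23, an E2F-like word occurred in 2.79% and a CCAAT word in 32.01%. Of the 22 windows of the 10 members, those of TET1 held 4 to 11 CpG, those of TET2 10 to 34 and those of TET3 27 to 37. The letters are a description of these windows and do not show that a factor binds there.

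Values are MAS5 signals, a linear brightness per probe set that the submitters had scaled to the same trimmed mean on every array. Median signals lay between 69.0 and 71.7 in MII, 72.1 and 74.9 in MIII, and 64.7 and 65.2 in MIV, and the pooled median of all signals was 69.3. The control transcript bioB gave a mean signal of 3133 on MIV replicate 3, against 1001 to 1523 on the other arrays. All 8 epithelial markers with a probe set of their own were above the pooled median on every array. Their summed signal was 126178 to 132780 in MII, 80532 to 82313 in MIII and 129355 to 140021 in MIV. The summed signal of 9 fibroblast markers was 1137 to 1175 in MII, 4899 to 5220 in MIII and 789 to 867 in MIV. DCN was the largest part of the high sum in MIII, at a mean of 2511 against 75 in MII and 52.6 in MIV. The surface marker THY1, at 995 in MIII, 60.8 in MII and 48.0 in MIV, COL3A1 and LUM were also high in MIII. COL1A1 was level, at 243.2 (MII), 213.4 (MIII) and 222.5 (MIV), and FAP had 677.9, 404.8 and 390.4. COL1A2, PDGFRA and PDGFRB were below the pooled median on all 9 arrays. The summed signal of 9 leukocyte and endothelial markers was 1802 to 2109 in MII, 1045 to 1193 in MIII and 813 to 853 in MIV. Of these, PTPRC, LYZ, VWF, CDH5 and TEK were below the pooled median on all 9 arrays. CD14 and PECAM1 were above it on all 9, HBB on 8 and CD3E on 6. CD14 had mean signals of 1489.6 (MII), 593.6 (MIII) and 322.7 (MIV) and was called lower than in MII in both other lines, while PECAM1 had 173.9, 250.8 and 306. The part of these markers in the members' changes was not tested.

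Changes are given as log2(signal + 18.3), where the offset is the pooled 25th percentile, so folds of weak signals are understated. A gene was tested when at least 3 arrays exceeded the pooled median, with its probe set of highest mean signal, and 12594 genes were tested together in limma with Benjamini-Hochberg adjustment. "Rose" and "fell" are used below for an adjusted p under 0.05, and "called" for those that also changed at least 2-fold. All 10 members were tested, on 14 of their 20 own probe sets. Precision is limited by the number of arrays, with a median standard error of 0.11 over the genes.

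In MIV against MIII, the larger changes were on the DNA methylation side. DNMT3B, TET1, UHRF1 and DNMT1 fell, DNMT3A rose, and of the PRC2 core SUZ12 fell while EZH2 and EED did not pass the test. That made 6 of 10 members past the adjusted p, 1 higher and 5 lower, against 51.9% of all genes, 25.3% higher and 26.6% lower. The call with a 2-fold change was met by 2 of 10, DNMT3B and TET1, against 12.7% of all genes. The arrays of MIV and MIII did not overlap for 6 of 10 members, against 58.8% of all genes, and 6 had an unadjusted p under 0.05, against 56.4%. These shares lie near those of all genes.

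In MIV against MII, UHRF1, DNMT3B, EZH2 and SUZ12 fell and DNMT3A rose, so 5 of 10 members passed the adjusted p, against 42.2% of all genes. The 1 higher and 4 lower members stood beside 20.0% higher and 22.2% lower among all genes. No member was called at 2-fold in limma, against 8.14% of all genes, while 8 of 10 had an unadjusted p under 0.05, against 48.8%. The arrays of these lines did not overlap for 7 of 10 members, against 50.7% of all genes.

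In MIII against MII, TET1 rose and EZH2 fell, and the other 8 members did not pass the test. That is 2 of 10 past the adjusted p against 47.2% of all genes, of which 22.9% were higher and 24.3% lower. TET1 was the 1 member called, against 11.7% of all genes. The arrays did not overlap for 6 members, against 55.3% of all genes, and 5 had an unadjusted p under 0.05, against 53.3%. The median absolute change of the members was 0.24, 0.26 and 0.21 in the comparisons MIV against MIII, MIV against MII and MIII against MII, where that of all genes was 0.32, 0.25 and 0.28. The exact permutation test (2-sided) of 3 arrays against 3 cannot go below 0.1, and it reached that value in 19 of the 30 member comparisons. The comparisons share arrays, so their counts are not independent of each other.

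**Figure D1:**
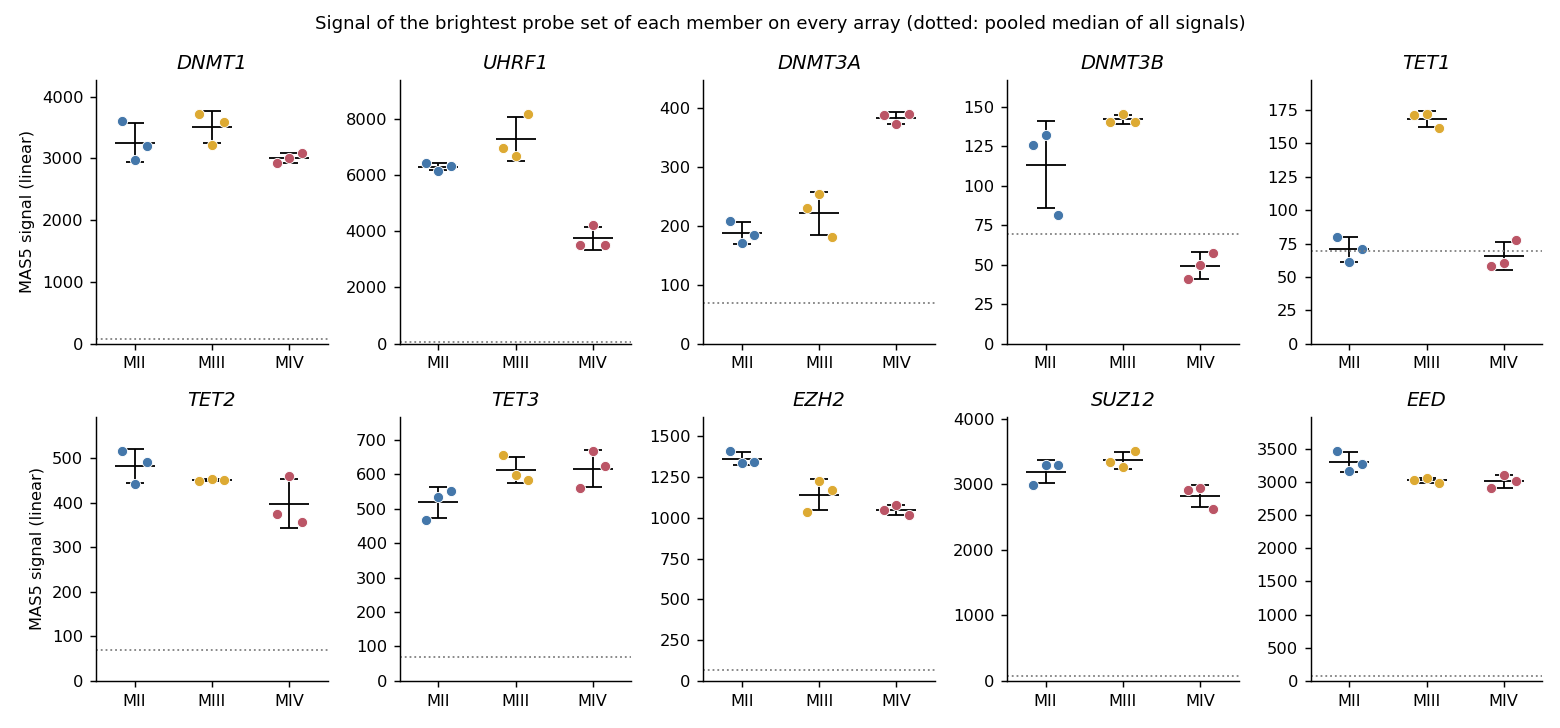
MAS5 signal of each member on its tested probe set of highest mean signal, on a linear axis from 0, with 1 point per array, 3 per line, the line mean ± SD as bars and the pooled median of all signals dotted. UHRF1 and DNMT3B sit lowest in MIV and DNMT3A highest, TET1 stands up in MIII alone, and EED lies nearly level.

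**Figure D2:**
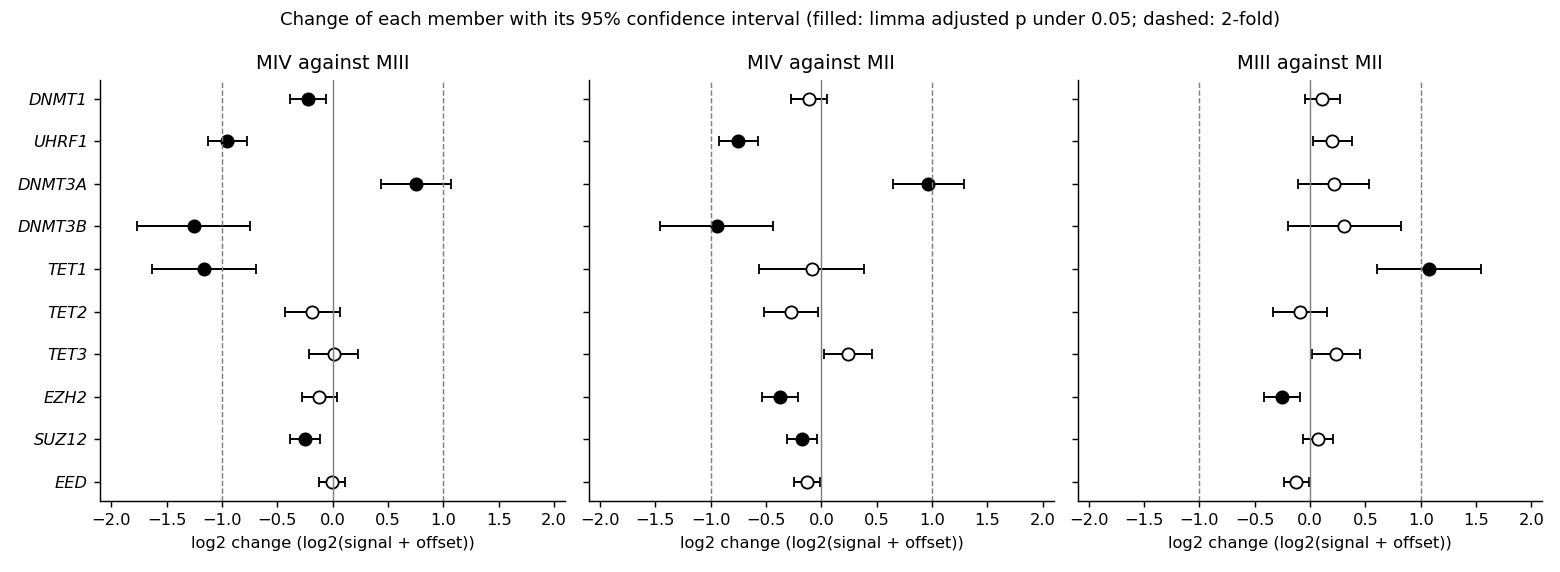
Log2 change of each member with its 95% confidence interval in the 3 comparisons, filled where the limma adjusted p was under 0.05, with the 2-fold change dashed. DNMT3B and TET1 pass the 2-fold line in MIV against MIII and TET1 in MIII against MII, while the points of the PRC2 subunits lie between −0.37 and 0.07.

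Among the maintenance genes, UHRF1, the reader of hemimethylated CpG, showed the larger change in MIV. Its probe set 225655_at gave signals of 6429, 6166 and 6326 in MII, 6974, 6699.8 and 8177 in MIII, and 3525, 4229.6 and 3506 in MIV. All MIV arrays lay below every array of the other lines, and all MIII arrays above every MII array. The change was −0.95 ± 0.08 (SE; 95% confidence interval −1.13 to −0.78) in MIV against MIII, a 1.94-fold lower signal, with an adjusted p of 2.86e-07. Against MII it was −0.75 ± 0.08, 1.68-fold lower, with an adjusted p of 5.30e-06. MIII and MII are neighbours that did not differ by the test, at 0.20 ± 0.08 with an adjusted p of 0.0547. That value moved to the other side of the threshold under 6 alternatives, among them a common median of the tested genes on all arrays, with an adjusted p of 0.0248, and leaving out MIII replicate 2 (0.0291) or MIV replicate 2 (0.0245).

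UHRF1 is transcribed in dividing cells, and the summed signal of 35 proliferation and replication genes was 155276 to 161041 in MII, 185418 to 187263 in MIII and 168113 to 172395 in MIV. The sum in MIV was above that of MII and below that of MIII on every array. It adds linear signals, so bright genes weigh most in it. Its part in the UHRF1 differences was not tested. In these bulk samples, fewer cells with UHRF1 RNA and less of it per cell cannot be told apart, and the same holds for the other members. Of these 35 genes, 4 rose and 16 fell in MIV against MIII, where 25.3% of all genes rose and 26.6% fell. In MIV against MII 13 rose and 8 fell, where 20.0% of all genes rose and 22.2% fell.

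DNMT1, the maintenance methyltransferase itself, had smaller changes than UHRF1. Its probe set 201697_s_at gave 3603, 2969.9 and 3194 in MII, 3718, 3223 and 3595 in MIII, and 2919, 3001 and 3081 in MIV. MIV was the lowest of the lines by its mean, and its arrays overlapped those of MII and not those of MIII. The fall in MIV against MIII was −0.22 ± 0.07 with an adjusted p of 0.0208, and it was lost without MIII replicate 1 (0.0877), without MIII replicate 3 (0.0652), without MIV replicate 1 (0.0662) and with no intensity trend in the variance prior (0.0650). Against MII the change was −0.11 ± 0.07 with an adjusted p of 0.248.

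UHRF2, the paralogue of UHRF1 and a member of the list of readers and maintenance partners, went the other way. Its mean signal was 3169 ± 178 (SD, n = 3) in MII, 4504 ± 76.6 in MIII and 7137 ± 258 in MIV. The rise was 1.17 ± 0.05 in MIV against MII (adjusted p 8.75e-10, called), 0.66 ± 0.05 in MIV against MIII (1.75e-07) and 0.51 ± 0.05 in MIII against MII (2.83e-06). Of the 13 tested genes of that list, which holds methyl-CpG binding proteins and DNMT1 partners, 5 rose and 4 fell in MIV against MIII, 1 rose and 3 fell in MIV against MII, and 4 rose and 2 fell in MIII against MII. Among all genes, 25.3%, 20.0% and 22.9% rose and 26.6%, 22.2% and 24.3% fell in these comparisons, in the same order. UHRF2 was the 1 gene of the list called in any of the comparisons, where 12.7%, 8.14% and 11.7% of all genes were called. The list medians were −0.14, −0.12 and −0.13, beside −0.01, −0.03 and −0.02 over all genes tested.

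The de novo methyltransferases moved in opposite directions in MIV. DNMT3A on probe set 222640_at gave 208.3, 170.5 and 184.3 in MII, 229.5, 253.6 and 181.7 in MIII, and 388.3, 372.3 and 389.7 in MIV. The MIV arrays were close together and above all others, while MII and MIII overlapped. The rise was 0.76 ± 0.15 against MIII (95% confidence interval 0.44 to 1.07, adjusted p 0.000641) and 0.97 ± 0.15 against MII, 1.96-fold, with an adjusted p of 0.000126. MIII and MII did not differ by the test, at 0.21 ± 0.15 with an adjusted p of 0.261.

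The probe set 218457_s_at of DNMT3A showed the same order of the lines at a weaker signal. It gave 35.7, 11.1 and 12.8 in MII, 39.6, 45.9 and 70.4 in MIII, and 98.4, 108.4 and 118.4 in MIV. It passed the filter on 4 arrays, of which 3 were those of MIV, so MIV had to be high for it to be tested. In the fit over 24455 probe sets it differed by 1.79 ± 0.33 in MIV against MII (adjusted p 0.000775, called) and by 0.87 ± 0.33 in MIV against MIII (0.0435), and by 0.91 ± 0.33 in MIII against MII (0.0393). Of all probe sets tested, 7.16% were called and 35.0% were past the adjusted p in MIV against MII, 11.7% and 46.1% in MIV against MIII, and 10.6% and 41.2% in MIII against MII. The third DNMT3A probe set, 244428_at, ranged from 11.9 to 99.4 with no order of the lines and did not pass the filter.

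DNMT3B, on its 1 probe set 220668_s_at, gave 126.1, 132.4 and 81.6 in MII, 140.6, 145.4 and 140.5 in MIII, and 40.7, 49.5 and 57.6 in MIV. All MIV arrays were below the pooled median and below every array of MII and MIII, so DNMT3B passed the filter through those lines alone. The fall was −1.26 ± 0.24 against MIII (adjusted p 0.000502, called) and −0.95 ± 0.24 against MII (0.00546). MIII and MII did not differ by the test, at 0.31 ± 0.24 with an adjusted p of 0.312. Under other settings the change ranged from −1.52 to −0.84 against MIII and from −1.17 to −0.61 against MII, and the offset accounted for both ends of those ranges.

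Among the TET dioxygenases, TET1 was high in MIII alone. Its probe set 228906_at gave 79.8, 61.1 and 71.1 in MII, 171.2, 172.0 and 161.8 in MIII, and 58.2, 60.5 and 77.7 in MIV. All MIII arrays lay clear of the others, and MII and MIV overlapped around the pooled median. TET1 rose by 1.07 ± 0.22 in MIII against MII (adjusted p 0.00109, called) and fell by 1.16 ± 0.22 in MIV against MIII (0.000497, called). MIV and MII did not differ by the test, at −0.09 ± 0.22 (95% confidence interval −0.56 to 0.38, adjusted p 0.780). The probe set 214862_x_at gave 1.3 to 53.2 and did not pass the filter. The fibroblast marker sum, given above, was also high in MIII alone, and its part in the TET1 difference was not tested.

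TET2 and TET3 did not pass the test in any comparison. TET2 on probe set 227624_at gave 515.2, 441.2 and 491.3 in MII, 449.7, 453.4 and 451.6 in MIII, and 375.2, 460.1 and 357.4 in MIV. MIV overlapped the other lines through its replicate 2 alone, and MII overlapped MIII. The change was −0.27 ± 0.11 in MIV against MII (adjusted p 0.0706) and −0.18 ± 0.11 in MIV against MIII (0.199). Without MIV replicate 2 the former was −0.38, with an adjusted p of 0.0203.

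A further TET2 probe set, 235461_at, gave 61.7, 59.4 and 49.0 in MII, 119.9, 122.2 and 100.8 in MIII, and 104.9, 68.6 and 61.5 in MIV. It passed the filter on 4 arrays, all 3 of MIII and 1 of MIV, so MIII had to be high for it to be tested. Its change was 0.82 ± 0.25 in MIII against MII (adjusted p 0.0159 over probe sets), where 227624_at gave −0.09. The TET2 probe set 1569385_s_at did not pass the filter and was lower in MIII than in MII, with no overlap. It gave 76.1, 68.4 and 61.3 in MII, 34.6, 25.1 and 49.3 in MIII, and 72.0, 45.5 and 47.0 in MIV. TET3 on probe set 235542_at gave 468.1, 534.9 and 550.9 in MII, 654.3, 597.7 and 581.9 in MIII, and 558.4, 665.6 and 623.0 in MIV. MII was the lowest line on this probe set, MIII and MIV overlapped, and the changes against MII were 0.23 in MIII (adjusted p 0.0758) and 0.24 ± 0.10 in MIV (0.0731). The change between MIV and MIII was 0.01 ± 0.10, with a 95% confidence interval of −0.21 to 0.23. The rise against MII passed the threshold when the tested genes were given a common median on all arrays, with an adjusted p of 0.0388 in MIV and 0.0465 in MIII. Probe set 214754_at of TET3 gave 71.7 to 137.1 and passed in no comparison.

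The core PRC2 subunits had narrow spreads and small changes. EZH2, the catalytic subunit, gave 1406, 1336 and 1340.3 on probe set 203358_s_at in MII, 1036, 1223 and 1168 in MIII, and 1045, 1081 and 1016 in MIV. All arrays of MII were above all others, and MIII and MIV overlapped. EZH2 fell by 0.37 ± 0.08 in MIV against MII (adjusted p 0.00123) and by 0.25 ± 0.08 in MIII against MII (0.0133), the latter at −0.18 with an adjusted p of 0.0638 without MIII replicate 1. MIV and MIII did not differ by the test, at −0.12 ± 0.08 (95% confidence interval −0.28 to 0.04, adjusted p 0.203). EZH2 was thus in no comparison higher in MIV by the test, and the upper bound of its interval against MIII was 0.04.

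SUZ12, the scaffold subunit, gave 2997, 3291 and 3299 on probe set 212287_at in MII, 3334, 3257 and 3502 in MIII, and 2908, 2939 and 2629 in MIV. MIV was the lowest line, with no overlap. SUZ12 fell by 0.25 ± 0.06 in MIV against MIII (adjusted p 0.00378) and by 0.18 ± 0.06 in MIV against MII (0.0350). The latter was lost without MIV replicate 3, the array with the high bioB signal (−0.13, adjusted p 0.150), without MII replicate 2 (0.109) or replicate 3 (0.113), under a common median (0.106) and with no trend in the variance prior (0.0808).

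The probe set 1566191_at of SUZ12 gave 136.7, 73.8 and 41.8 in MII, 217.1, 185.3 and 240.8 in MIII, and 96.4, 134.5 and 106.7 in MIV. It was highest in MIII, with a rise of 1.29 ± 0.29 in MIII against MII (adjusted p 0.00268 over probe sets, called), where 212287_at gave 0.07. When all probe sets of the gene were averaged, SUZ12 changed by 0.66 in MIII against MII (adjusted p 0.00180) and by 0.17 in MIV against MII (0.368). The probe set shared with SUZ12P1, 213971_s_at, had mean signals of 799 ± 15.5 (MII), 1070.5 ± 147 (MIII) and 764.8 ± 90.1 (MIV), and these cannot be assigned to either gene.

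EED, the subunit that binds methylated lysine 27, gave 3457, 3159 and 3271 on probe set 209572_s_at in MII, 3027, 3059 and 2979.9 in MIII, and 2906, 3102 and 3014 in MIV. Its lines lay closest together of the members, with changes of −0.01 ± 0.05 in MIV against MIII (95% confidence interval −0.12 to 0.11, adjusted p 0.922) and −0.13 ± 0.05 in MIV against MII (0.0660). Quantile normalization put the latter at −0.15 with an adjusted p of 0.0407.

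**Figure D3:**
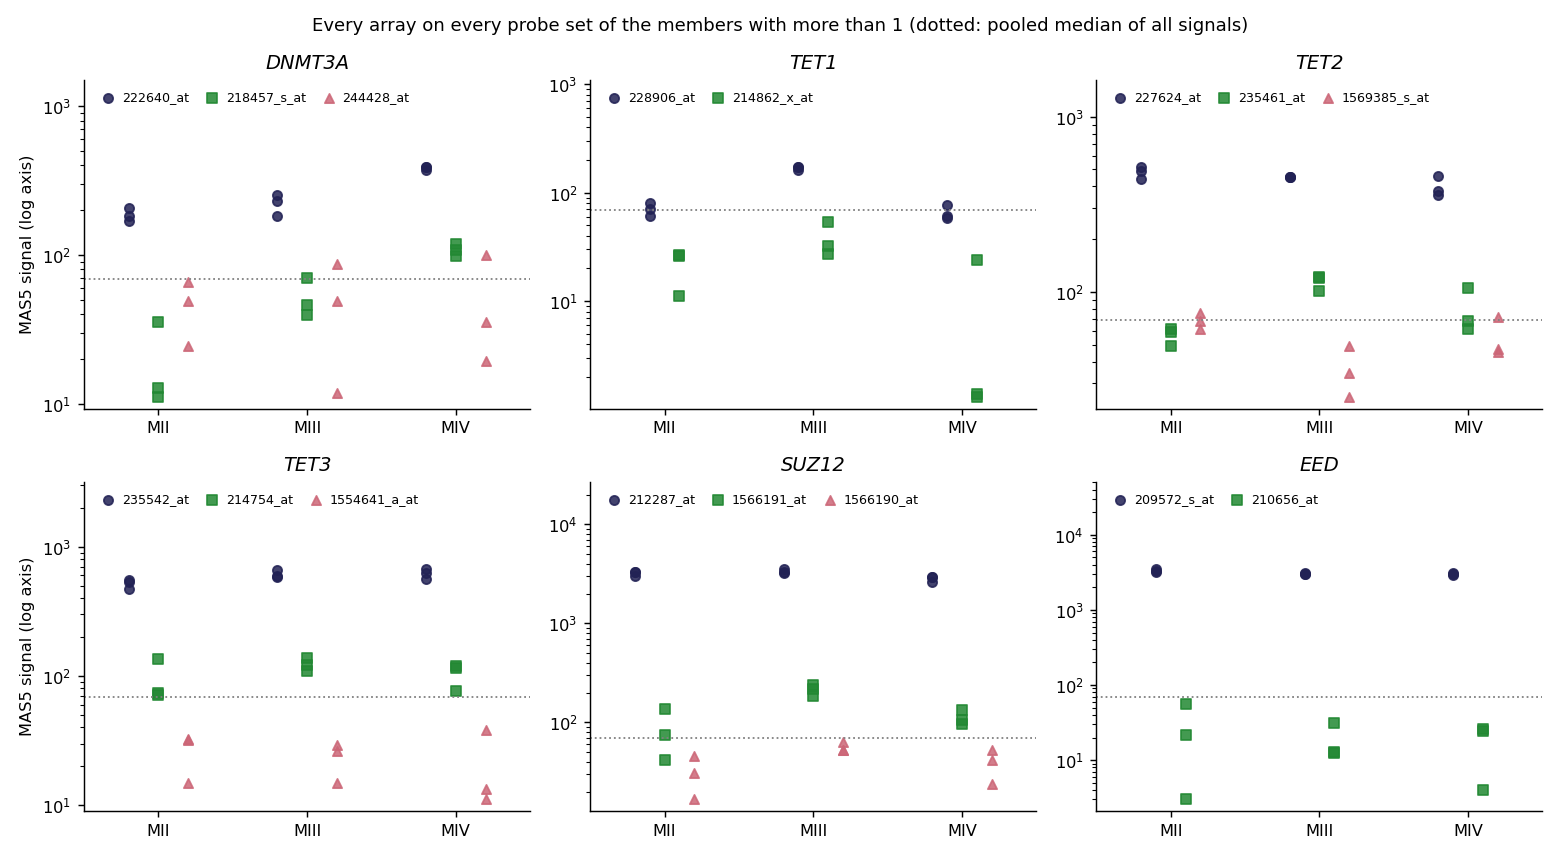
MAS5 signal, on a log axis, of every array on every own probe set of the 6 members with more than 1, by line, with the pooled median dotted. The DNMT3A probe sets 222640_at and 218457_s_at are both highest in MIV. The latter is weak and was tested only because MIV was high, and 244428_at shows no order of the lines. The probe sets 1566191_at of SUZ12 and 235461_at of TET2, also weak, stand higher in MIII than in MII, by 1.29 and 0.82 on the log2 scale. The weak TET2 probe set 1569385_s_at, which was not tested, stands lower in MIII than in MII.

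Next come the enzymes that work with the TET proteins. Of 15 tested genes of the demethylation and base excision list, 2 rose and 6 fell in MIV against MIII, 2 rose and 3 fell in MIV against MII, and 4 rose and 1 fell in MIII against MII. None was called in limma, and 8, 5 and 6 had an unadjusted p under 0.05, against 56.4%, 48.8% and 53.3% of all genes. For this list and those below, 25.3%, 20.0% and 22.9% of all genes rose and 26.6%, 22.2% and 24.3% fell. The shares of all genes called were 12.7%, 8.14% and 11.7%. TDG, the glycosylase that excises oxidised methylcytosine, had mean signals of 2577 (MII), 3895 (MIII) and 2096 (MIV), and its fall in MIV against MIII was −0.89 ± 0.07 (adjusted p 1.63e-07). GADD45A, a stress gene linked to active demethylation, rose by 0.64 ± 0.09 in MIV and by 0.93 ± 0.09 in MIII against MII (8.59e-05 and 1.69e-06). The list medians were −0.11, 0.0016 and 0.10 in the comparisons MIV against MIII, MIV against MII and MIII against MII.

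Among 15 tested genes of methyl donor and 2-oxoglutarate metabolism, which supplies the methyl group and the TET cosubstrate, 4 rose and 4 fell in MIV against MIII, 1 rose and 8 fell in MIV against MII, and 2 rose and 5 fell in MIII against MII. NNMT, which uses up S-adenosylmethionine by methylating nicotinamide, had mean signals of 7969 (MII), 16802 (MIII) and 3216 (MIV). It was called in each comparison, at −2.38 ± 0.07 in MIV against MIII, −1.31 ± 0.07 for MIV relative to MII and 1.07 ± 0.07 for MIII relative to MII. IDH1 and IDH2, which make 2-oxoglutarate from isocitrate, were called lower in MIII than in MII, at −1.28 ± 0.06 and −1.05 ± 0.08. The calls of NNMT, IDH1 and IDH2 in MIII against MII were lost with averaged probe sets, at 0.86, −0.94 and −0.82. The medians were 0.02, −0.13 and −0.08.

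Of 10 tested accessory subunits of PRC2, 1 rose and 3 fell in MIV against MIII, 3 rose and 2 fell in MIV against MII, and 4 rose and 1 fell in MIII against MII. None was called in limma, and 6, 7 and 6 had an unadjusted p under 0.05, against 56.4%, 48.8% and 53.3% of all genes. LCOR, whose locus encodes a PRC2.1 subunit, rose by 0.82 ± 0.08 in MIV against MIII (adjusted p 1.58e-06). PHF1 rose by 0.52 ± 0.11 in MIV against MII (0.00147), and AEBP2, a PRC2.2 subunit, by 0.68 ± 0.06 in MIII against MII (7.59e-07). The medians were −0.11, 0.12 and 0.07.

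Of 19 tested PRC1 subunits, the complex that binds the mark of PRC2, 4 rose and 7 fell in MIV against MIII, 7 rose and 2 fell in MIV against MII, and 7 rose and 2 fell in MIII against MII. In MIV against MIII the reader CBX6 was called at −1.56 ± 0.09 and PCGF5 at 1.36 ± 0.07. In MIV against MII the reader CBX2 was called at −1.32 ± 0.13, from a mean of 567.4 ± 55.4 (SD, n = 3) to 215.0 ± 9.03, and it changed by −0.63 with averaged probe sets. PHC2 rose by 0.67 ± 0.05 in MIII against MII, with an adjusted p of 2.95e-08. The medians were −0.17, 0.16 and 0.41.

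Enzymes that oppose PRC2 by removing methyl groups from lysine 27 or adding them to lysine 4, with subunits of their complexes, made up 16 tested genes. Of these 3 rose and 5 fell in MIV against MIII, 2 rose and 1 fell in MIV against MII, and 4 rose and 3 fell in MIII against MII. None was called in limma, and 10, 5 and 7 had an unadjusted p under 0.05, against 56.4%, 48.8% and 53.3% of all genes. KMT2D, a lysine 4 methylase of enhancers, had mean signals of 945 (MII), 1737 (MIII) and 1113 (MIV), with changes of −0.63 ± 0.07 in MIV against MIII and 0.87 ± 0.07 in MIII against MII. DPY30, a shared subunit of these methylases, rose by 0.38 ± 0.05 in MIV against MII (adjusted p 5.19e-05). The medians were −0.11, 0.03 and −0.02.

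The list of H3K9 methylases, HP1 proteins and histone deacetylases also holds other chromatin genes, such as NSD1, SETD2, KDM1A and CHD4. Of its 31 tested genes, 3 rose and 8 fell in MIV against MIII and 5 rose and 6 fell in MIV against MII. In MIII against MII 10 rose and 5 fell. HDAC9, a class IIa deacetylase, had mean signals of 337.7 (MII), 109.7 (MIII) and 473.7 (MIV) and was called at 1.95 ± 0.14 in MIV against MIII and −1.48 ± 0.14 in MIII against MII. Both calls were lost with averaged probe sets, at 0.36 and −0.21. HDAC1 fell by 0.37 ± 0.05 in MIV against MII, with an adjusted p of 4.29e-05. The medians were −0.02, −0.05 and 0.07.

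Of the 35 proliferation and replication genes, TYMS, which makes thymidylate for DNA synthesis, fell by 0.87 ± 0.05 in MIV against MIII (adjusted p 1.92e-09). E2F2, an activating E2F factor, was called at −1.13 ± 0.13 in MIV against MII, with mean signals of 662.0 (MII), 501.5 (MIII) and 290.0 (MIV), and at −0.67 with averaged probe sets. FOXM1 was called at 1.03 ± 0.07 in MIII against MII, and at 0.96 without MII replicate 1 and 0.98 without MIII replicate 1 it stayed under 2-fold. The medians were −0.11, 0.06 and 0.10, and the summed signals stand beside UHRF1 above.

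Genes reported as silenced by promoter methylation in breast carcinoma changed in both directions. This list was drawn up with results of these arrays known and holds CAVIN2, the gene the study is named for under its older symbol SDPR, so its direction is not independent evidence. Of 22 tested genes, 5 were called higher and 7 lower in MIV against MIII, where 12.7% of all genes were called. In MIV against MII 0 were called higher and 5 lower (8.14% of all genes), and in MIII against MII 3 and 5 (11.7%). The medians were 0.13, −0.15 and −0.03. CCND2 (cyclin D2) had mean signals of 46.8 (MII), 1256 (MIII) and 19.3 (MIV). It passed the filter on the 3 MIII arrays alone, so MIII had to be high for it to be tested. The 1 other tested probe set of CCND2 passed the adjusted p neither in MIV against MIII nor in MIII against MII. TIMP3, a metalloproteinase inhibitor, had 976 in MII, 1866 in MIII and 35.2 in MIV. PYCARD, an inflammasome adaptor, had 705.5, 711.0 and 4.5, and CAVIN2, a caveola coat protein, 1125, 597.8 and 14.1. TIMP3, PYCARD and CAVIN2 exceeded the pooled median on no MIV array, so they passed the filter through MII and MIII alone.

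The sign of these changes differed from gene to gene. CDH1 (E-cadherin) had mean signals of 12055 (MII), 1305 (MIII) and 7288 (MIV). It was called at −3.19 ± 0.05 in MIII against MII and at 2.47 ± 0.05 in MIV against MIII. LOX, a collagen crosslinking enzyme, was called at 3.06 ± 0.12 and ESR1, the estrogen receptor, at −2.44 ± 0.27 in MIII against MII. ESR1 was weak, with mean signals of 221.5 (MII), 26.4 (MIII) and 91.4 (MIV), and exceeded the pooled median on no MIII array. DAPK1, a death-associated kinase, was called at −1.37 ± 0.15 in MIV against MII. UHRF1 and DNMT3B fell and DNMT3A rose in the line where TIMP3, PYCARD and CAVIN2 were below the pooled median on every array. Whether the members had a part in these levels was not tested.

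Of 11 tested genes reported as repressed by EZH2, 1 was called higher and 3 lower in MIV against MIII (12.7% of all genes). In MIV against MII 1 was called higher and 3 lower (8.14% of all genes), and in MIII against MII 3 and 1 (11.7%). The medians were −0.10, 0.06 and 0.34. IGFBP3, an insulin-like growth factor binding protein, had mean signals of 2098 (MII), 7114 (MIII) and 299 (MIV), with changes of −4.51 ± 0.12 in MIV against MIII and −2.74 ± 0.12 relative to MII. SLIT2, a guidance ligand, had 139.5, 818.4 and 1265, with a change of 3.03 ± 0.12 in MIV against MII. TIMP2 had 1133, 1646 and 488.2, and CDKN1C, a cyclin-dependent kinase inhibitor, was called at 1.25 ± 0.22 in MIII against MII. TIMP3 and CDH1 stand on both lists. EZH2 was lower in MIV than in MII, by 0.37, where 2 of the 11 genes rose and 5 fell. The former included SLIT2 and the latter TIMP3, IGFBP3 and TIMP2. Whether EZH2 had a part in these levels was not tested.

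Germline genes that DNA methylation keeps silent in somatic cells gave no signal to test. Of 33 listed genes, 23 had a probe set of their own, and 21 of these exceeded the pooled median on no array. The exceptions, named after their values were seen, were MAGEC1 on 1 MII array and SYCP3 on 2 MIII arrays. Not one reached the 3 arrays the filter asks for, so no change of a germline gene was tested in any comparison. Their relation to the lower signals of UHRF1 and DNMT3B in MIV was therefore not tested.

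**Figure D4:**
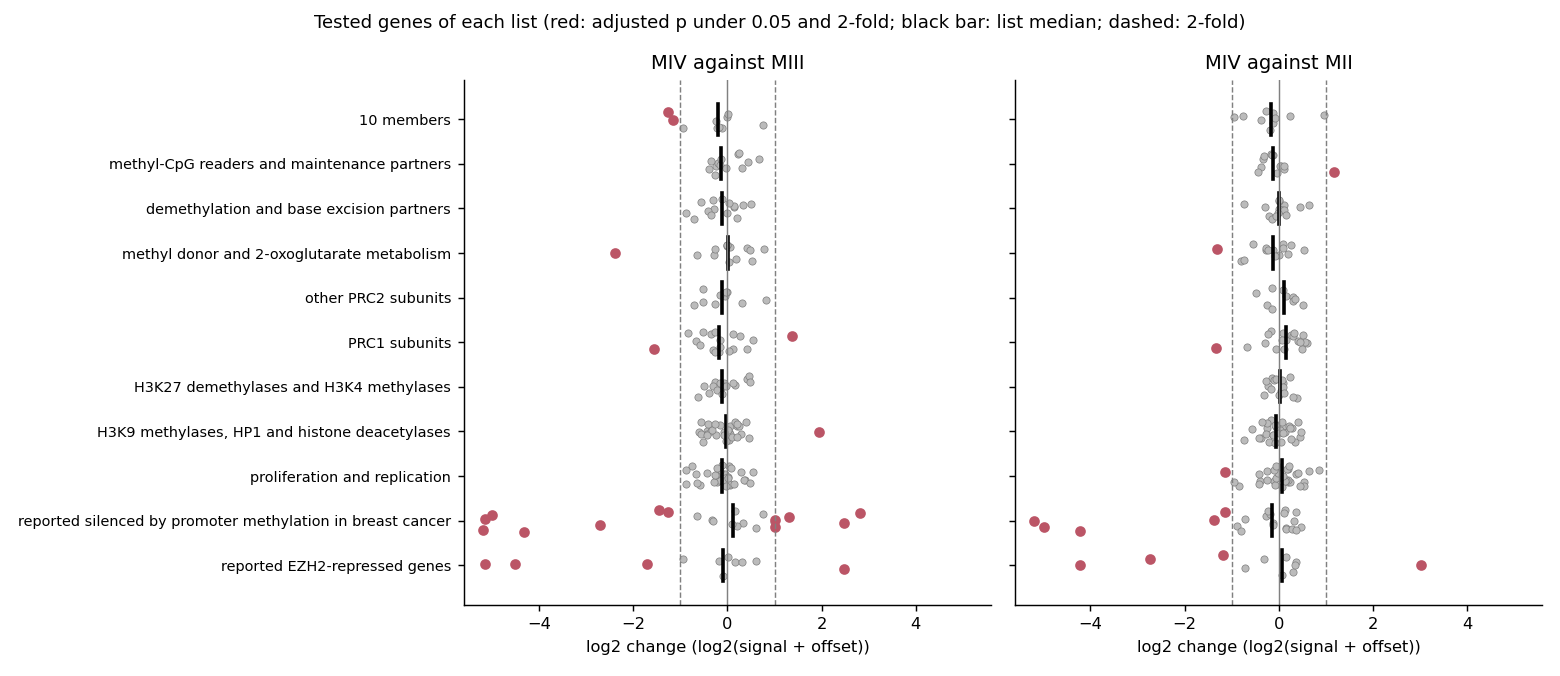
Log2 change of every tested gene of the chromatin and methylation lists, 1 row per list, in MIV against MIII (left) and MIV against MII (right), with the list median as a bar, called genes in red and the 10 members on top. Medians lie between −0.20 and 0.16, while TIMP3, on both reported-target lists, stands at −5.14 and −4.22.

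The genes with the pattern most like a member over the 9 arrays were ranked by the root mean square (RMS) difference of log2 values centred on each gene. UHRF1, whose own RMS spread was 0.42, was followed by ANPEP (0.055), LUC7L (0.083) and RABEP2 (0.085). ANPEP had mean signals of 5985 (MII), 6848 (MIII) and 3372 (MIV). DNMT3A, with a spread of 0.43, was followed by DPCD (0.11), LRRC27 (0.11) and MPV17 (0.12), and DNMT3B, with 0.56, by FZD1 (0.12), STMN3 (0.14) and AHR (0.14). TET1, with 0.54, had LARP6 (0.10), UNKL (0.11) and NUCB1 (0.11). EZH2 was followed by ARHGEF18, DCTN5 and ECHDC1, SUZ12 by METAP2, PSAT1 and MTRR, DNMT1 by DHX30, HAUS1 and PHLDB3, TET2 by C1orf122, ZZEF1 and BAHD1, TET3 by PITRM1, CNPY3 and AKIRIN2, and EED by CLP1, KRTCAP2 and IARS1. MTRR, a methionine cycle gene, is on the methyl donor list above.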

How the data were processed

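The authors deposited 1 intensity value per probe set and array, a linear signal from MAS5, per the submitters' processing notes. Its version is not given in the sources used here, nor are detection calls. The mean signal without the lowest and highest 2% was 499.93 on all 9 arrays, and no further scaling was applied. Array annotation gave 1 gene for 41091 of 54675 probe sets. Signals were tested as log2(signal + 18.3) with a group-means model in limma 3.58.1, run in R 4.3.3 on the 9 arrays together with an intensity-dependent variance prior and 6 residual degrees of freedom, per gene and again per probe set. The filter was at least 3 arrays above 69.3, and the fit was tested on simulated data. Errors are SDs over 3 arrays or standard errors from limma.

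The members and lists were chosen with earlier results of these data known. Beside the members, up to 4 called genes with the largest change were named per list and comparison, or, with no call, the gene of smallest p. The 3 genes nearest to each member were named as well. Genes carried by shared probe sets alone were not tested. RefSeq promoter windows came from GRCh38.p14. Replicate numbers did not pair the arrays, with correlations of their deviations between −0.0392 and 0.0393. Alternatives were other offsets, scalings, filters, probe set choices, variance priors, array weights, a replicate block, fewer lines and each array left out.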

Additional observations from a re-analysis of the deposited data

How the results depend on the processing

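UHRF1, DNMT3A, DNMT3B and EZH2 kept their direction and their side of the adjusted p in MIV against MII, and UHRF1, DNMT3A and DNMT3B in MIV against MIII, under every alternative that tested them. UHRF1 ranged from −1.04 to −0.87 against MIII and from −0.84 to −0.71 against MII, and DNMT3A from 0.56 to 0.86 and from 0.82 to 1.04. In all, 575 member changes kept direction and side, 14 gained and 10 lost the adjusted p, and 10 reversed. The counts of called members, with 2, 0 and 1 in the order MIV against MIII, MIV against MII and MIII against MII, rest on changes near 2-fold. In MIV against MIII the count was 0 with an offset of the pooled median, 0 with a filter at the pooled 75th percentile, which leaves 7 members, and 1 with suffix-free probe sets, which leave 6 members. In MIV against MII it was 2 with an offset of 1, 1 with quantile normalization and 1 with a common median of the tested genes, and leaving out 1 array gave 0 to 1, the latter without MII replicate 1, MII replicate 3 or MIV replicate 3. In MIII against MII it was 0 with an offset of the pooled median, 0 with the 75th percentile filter and 0 with averaged probe sets, and leaving out 1 array gave 0 to 1, with 0 without MII replicate 2. Members past the adjusted p, with 6, 5 and 2 in the same order, numbered 3 for MIV against each of the other lines under the 75th percentile filter. With suffix-free probe sets they numbered 3 for MIV against MII and 1 for MIII against MII, and with a common median 4 for the latter. Leaving out 1 array gave 5 to 6, 4 to 6 and 1 to 3, with 1 without MIII replicate 1. EED in MIV against MIII turned to 0.0021 with a common median and ranged from −0.0300 to 0.0168 without 1 array. TET3 in MIV against MIII turned to −0.12 with averaged probe sets and ranged from −0.0483 to 0.0747 without 1 array. With averaged probe sets SUZ12 turned to 0.17 in MIV against MII and TET2 to 0.0143 in MIII against MII. Apart from fewer members tested, the cause of these shifts was not tested. The replicate block gave 2, 0 and 1 called members and 6, 5 and 2 past the adjusted p, the counts without it, and changed no member's call. Of the lists' counts, under alternatives chosen after seeing the data, 791 stayed within 1.5 times and 28 did not. Weak signals around or below the pooled median, as of DNMT3B in MIV and TET1 in MII and MIV, limit how large a change could be measured.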
